A study of Mus musculus with 5 samples.

Results

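The genes described here encode the junctions, polarity proteins and surface proteases that hold an epithelial sheet together. They are 38 genes taken by symbol, with no threshold on their values, from the 29267 genes of RNA sequencing tables of mouse embryonic fibroblasts (MEFs) undergoing reprogramming. By role, 2 belong to adherens junctions and epithelial adhesion, 10 to the tight junction membrane, 3 to the tight junction plaque, 10 to desmosomes, 2 to gap junctions, 5 to polarity, 4 to the matriptase protease system and 2 to epithelial trafficking. They lie on 15 chromosomes.

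There were 5 libraries, 1 per group, all from MEFs of the ICR strain background. At day 4, cells expressed either Flag, a tag sequence used as control, or CypD, cyclophilin D, a mitochondrial regulator of the permeability transition pore that is encoded by Ppif. At day 8, cells were untreated (control), given mastoparan, a peptide from wasp venom, or given paraquat, a redox-cycling herbicide that produces superoxide. The sample labels also give all 3 day-8 groups as expressing CypD, which the series' design text does not say. Ppif stood at 44.2 CPM (counts for each 1000000 reads of the scaled library) in the Flag library and at 761 CPM in the CypD library. At day 8 it stood at 29.2 CPM without treatment, 33.3 with mastoparan and 34.2 with paraquat, so the day-8 libraries did not show the raised Ppif of the CypD library at day 4. The labels name neither the reprogramming factors nor the doses.

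In a simple epithelium, tight junctions seal the space between neighbouring cells, adherens junctions and desmosomes carry mechanical load, and gap junctions let small molecules pass. Polarity complexes set where the apical surface ends, and the membrane protease matriptase, with its activator and inhibitors, acts at the cell surface. Fibroblasts make little of much of this machinery, and its appearance during reprogramming is part of the mesenchymal-to-epithelial transition known from this system. Transcription factors of the Snail and Zeb families repress E-cadherin and other epithelial genes through E-boxes, short DNA sequences that they bind in promoters.

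RefSeq promoters (build GRCm38.p6, 250 bases before to 50 after a gene's start) were held for 25 of the 38 genes. None was held for Cdh1, Marveld3, Llgl2, St14 or Prss8, or for any desmosome gene other than Jup and Dsp. The sequences below are 5 promoters with several E-boxes, of genes that were higher in every day-8 library, followed by that of Jup, also higher in every day-8 library, which holds none. The promoter of Spint2, like Jup one of the 3 most abundant genes of the set at day 4, is not shown and holds 3. Those of Spint1 and Cgn, also higher in every day-8 library, are not shown and hold 0. Cldn4, Cldn7, Crb3 and Rab25 averaged under 1 CPM over the day-4 libraries. They reach a mean of 1 CPM only through day 8, so they had to be higher there. Each sequence shown runs 5′ to 3′ on its gene's strand, and capitals mark E-boxes (CACCTG, or CAGGTG on the other strand). Epcam lies at chr17:87635729-87636028 (plus strand), Cldn4 at chr5:134946885-134947184 (minus strand), Cldn7 at chr11:69965171-69965470 (plus strand), Crb3 at chr17:57061981-57062280 (plus strand), Rab25 at chr3:88548230-88548529 (minus strand) and Jup at chr11:100397741-100398040 (minus strand).
Epcam: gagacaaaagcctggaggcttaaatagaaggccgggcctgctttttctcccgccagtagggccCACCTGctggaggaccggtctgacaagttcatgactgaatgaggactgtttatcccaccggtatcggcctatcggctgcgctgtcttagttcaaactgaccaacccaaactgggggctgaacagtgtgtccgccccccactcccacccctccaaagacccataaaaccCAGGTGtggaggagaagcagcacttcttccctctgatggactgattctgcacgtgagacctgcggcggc
Cldn4: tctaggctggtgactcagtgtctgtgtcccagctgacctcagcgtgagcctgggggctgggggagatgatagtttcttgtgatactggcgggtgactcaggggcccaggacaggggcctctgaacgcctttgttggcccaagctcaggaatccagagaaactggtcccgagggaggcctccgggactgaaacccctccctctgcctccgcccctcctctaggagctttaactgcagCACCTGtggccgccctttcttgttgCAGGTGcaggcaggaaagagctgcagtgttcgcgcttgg
Cldn7: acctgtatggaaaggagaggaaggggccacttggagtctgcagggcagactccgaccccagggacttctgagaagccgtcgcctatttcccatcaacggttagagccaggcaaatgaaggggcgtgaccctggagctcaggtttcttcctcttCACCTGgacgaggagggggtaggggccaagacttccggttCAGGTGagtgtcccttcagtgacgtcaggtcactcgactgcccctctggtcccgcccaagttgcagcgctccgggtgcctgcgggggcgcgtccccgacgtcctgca
Crb3: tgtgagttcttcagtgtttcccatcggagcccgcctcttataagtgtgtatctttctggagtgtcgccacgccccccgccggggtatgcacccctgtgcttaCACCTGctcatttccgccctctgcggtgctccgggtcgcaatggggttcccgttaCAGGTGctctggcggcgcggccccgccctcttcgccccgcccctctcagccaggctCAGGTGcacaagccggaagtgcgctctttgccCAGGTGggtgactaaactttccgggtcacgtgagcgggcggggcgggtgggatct
Rab25: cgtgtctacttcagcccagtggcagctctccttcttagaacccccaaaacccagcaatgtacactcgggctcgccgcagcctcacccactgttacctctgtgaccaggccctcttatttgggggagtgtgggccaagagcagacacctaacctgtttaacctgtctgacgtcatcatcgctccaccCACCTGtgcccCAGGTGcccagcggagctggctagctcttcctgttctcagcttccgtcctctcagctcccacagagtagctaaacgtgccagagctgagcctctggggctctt
Jup: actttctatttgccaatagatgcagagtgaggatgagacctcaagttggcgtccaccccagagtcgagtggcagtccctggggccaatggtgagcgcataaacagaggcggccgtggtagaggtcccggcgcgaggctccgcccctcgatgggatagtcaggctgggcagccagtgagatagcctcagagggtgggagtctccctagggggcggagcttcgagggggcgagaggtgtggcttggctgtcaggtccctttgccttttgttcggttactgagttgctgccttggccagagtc

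The Crb3 promoter holds 4 E-boxes, those of Epcam, Cldn4, Cldn7 and Rab25 hold 2 each, and that of Jup holds 0. In Cldn4 the copies begin 14 bases before and 11 bases after the start, and in Rab25 they begin 64 and 53 bases before it. Cldn7 and Crb3 each have a further promoter in the table. The further Cldn7 promoter holds 0 E-boxes, and that of Crb3 overlaps the one shown and holds the same 4.

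Over both strands, an E-box was present in a promoter of 19 of the 25 genes (76.0%), and 12 of the 19 had more than 1 copy. Among 10321 measured genes with a promoter the share was 21.0%, and among all 27025 genes in the table it was 22.6%. Some genes have more than 1 promoter, which gives more places for a match. Among those with a single promoter, 12 of 18 of the epithelial genes (66.7%) held an E-box, against 20.02% of 22862 genes. Base composition was close, with a median GC content of 62.3% in the epithelial genes and 61.3% in measured genes. Where GC content was at least 60%, the shares were 76.5% of 17 epithelial genes and 21.4% of measured genes.

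A 6-base match describes the letters and does not show that a factor is bound there. Measured genes of the set that were higher in every day-8 library held an E-box in 14 of 17 cases (82.4%), and the remaining genes, Cldn6 and Gjb2 included, in 5 of 8 cases (62.5%). In the first group, Cldn4, Cldn7, Crb3, Rab25 and Ap1m2 count as measured only through their day-8 values. Where promoter GC was at least 60% the order was the other way, at 75.0% of 12 and 80.0% of 5, so no difference between these groups is drawn. Among all 2947 measured genes with a promoter that were higher in every day-8 library, the share was 27.1%. The GC box (CCGCCC, either strand) was in 84.0% of the epithelial genes and 69.5% of measured genes. A match to the Grainyhead-like element (AACCNGTT, either strand) was in 2 of 25 genes (8.00%) and in 2.23% of measured genes. The 2 genes were Rab25 and Cgn, and Grainyhead-like factors are known as activators of epithelial genes. Of 46 E-box copies in promoters of the set (overlapping promoters of a gene counted separately), 0 overlapped another of the searched motifs by at least 1 base.

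**Figure D1:**
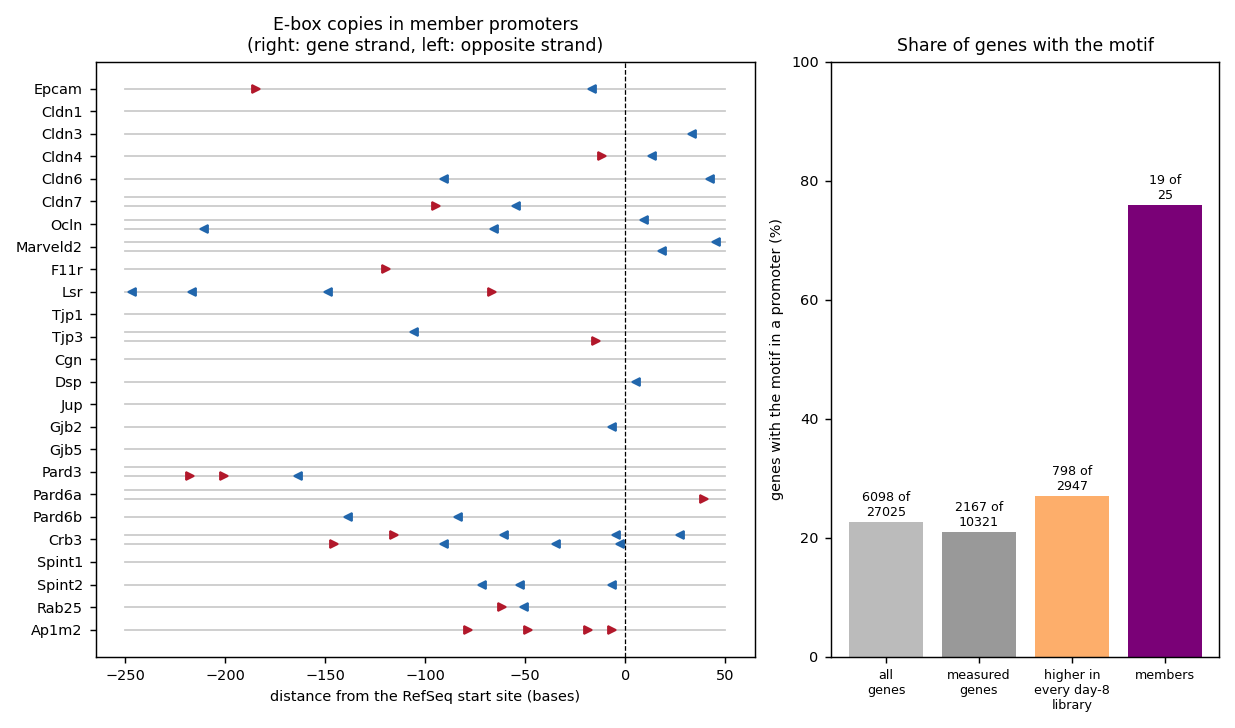
Percent of genes with at least 1 E-box in a RefSeq promoter, for the epithelial junction and polarity genes and for comparison sets, with the number of genes in each. The epithelial set stands at 76.0% over its 25 genes with a promoter, and measured genes at 21.0%.

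The libraries held between 2426014.71 and 3426701.66 expected counts in all. The 38 genes together received 2213 counts in the Flag library, 2921 in CypD, 5877 in the day-8 control, 5379 with mastoparan and 4277 with paraquat. At this depth 3 counts, the floor used where a gene had none, correspond to between 0.869 and 1.30 CPM. Of the 38 genes, 19 had under 10 counts in the Flag library and 17 in the CypD library, against between 3 and 6 in the day-8 libraries. Averaged over the 5 libraries, 36 genes reached 1 CPM, here called measured, and 27 of them reached 5 CPM. The exceptions were Cldn6 (0, 0, 2, 2 and 1 counts) and Gjb2 (0, 0, 1, 2 and 1 counts), in the order Flag, CypD, control, mastoparan and paraquat, which all values below follow unless said otherwise. The 1 CPM filter was passed by 8 genes only through their day-8 counts. No group had a replicate, so no test and no p-value is given, and 95% intervals of a fold are exact Clopper-Pearson intervals that cover counting error only.

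The labelled cell type was checked with marker genes. Vim, the intermediate filament protein of mesenchymal cells, stood between 3406 and 3864 CPM and Col1a2, a collagen chain, between 1296 and 1516 CPM. The 10 fibroblast markers summed to 7067 and 6979 CPM at day 4 and to 6845, 6811 and 6522 CPM at day 8, with none at 0. Vim and Col1a2 made up most of this sum, and single markers differed more. Of the 10, 3 were higher and 5 lower in every day-8 library (28.5% and 28.1% of all measured genes were). Their log2 ratios of day-8 control against Flag ran from −1.01 to 0.96. All 6 epithelial keratins were measured, and all 6 were higher in every day-8 library, where 28.5% of all measured genes were. They summed to 197.7 and 190.5 CPM at day 4 and to 679, 691 and 788 CPM at day 8. Krt7 was at 0 in the Flag library and at 53.5 CPM in the day-8 control, and Krt6a, a keratin of stratified epithelium under stress, went from 5.13 to 92.1 CPM. Cdh5 and Emcn of endothelium, Adgre1 of macrophages, and Myod1, Myog and Ckm of muscle were at 0 in all 5 libraries. The remaining muscle markers, Des (1, 6, 9, 8 and 15 counts) and Actn2 (3, 5, 10, 14 and 9 counts), brought the sum of the 5 to 1.58 and 3.19 CPM at day 4 and to 6.16, 7.72 and 10.4 CPM at day 8, in the order Flag, CypD, control, mastoparan and paraquat. The 6 blood and macrophage markers summed to 7.89 and 9.85 CPM at day 4 and to between 17.5 and 21.7 CPM at day 8, most of it Cd68, with between 1 and 3 at 0. The 6 keratinocyte markers summed to 13.0 and 12.7 CPM and then to between 105.3 and 113.0 CPM, most of it Krt6a, with 1 at 0 in each library. The 6 endothelial markers, nearly all of it Tek, summed to between 48.96 and 60.7 CPM over all libraries, with 2 or 3 at 0. The 8 pluripotency markers summed to 11.8 and 16.2 CPM at day 4 and to 35.0, 29.1 and 32.9 CPM at day 8, with 4 or 5 at 0 at day 4 and 1 or 2 at day 8, while the 5 neural markers summed to 74.98 and 72.1 CPM and then to 34.4, 41.4 and 26.9 CPM, with 0 or 1 at 0. The keratin, keratinocyte, blood, muscle and pluripotency sums thus stood higher on the same day as the set and the neural sum lower, and their part in its differences was not tested. In bulk RNA, more cells that express a gene and more RNA per cell cannot be told apart, and this holds for every difference below.

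Between days, the epithelial junction and polarity genes were higher at day 8 in most roles. Of all 38 genes, 32 had every day-8 value above both day-4 values, 0 had every day-8 value below them, and in 6 the days overlapped (Cldn1, Tjp1, Gjb5, Pard3, Pard6a and Pard6b). Over all genes without a filter, 14.8% were higher and 14.2% lower. The 32 include Cldn6 and Gjb2, which had at most 2 counts in any library, under the floor. Of the 36 measured genes, 30 were higher in every day-8 library, and among all 13584 measured genes 28.5% were. Genes that pass the filter only through day 8 had to be higher there, so the day-4 libraries were also used alone as the filter. Then 22 of 28 genes were higher in every day-8 library, against 26.2% of 13244 genes. In 19 measured genes the lowest day-8 value was more than 2-fold above the highest day-4 value. These include the 8 genes that passed the filter only through day 8, and the share over all genes was not computed. The day-4 and day-8 libraries also differ in what the cells expressed or were treated with, and the day, the culture and the library cannot be told apart.

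The direct comparison of untreated day-8 cells with the Flag library gave the size of these differences. Of the 36 measured genes, 29 exceeded their Flag value by 1.5-fold or more in the day-8 control, where 19.0% of all measured genes were, and 0 were at least 1.5-fold lower, where 12.8% were. The counting interval of the fold lay above 1 for 26 genes, where it did for 18.2% of all genes. It lay below 1 for 1 gene, Pard3, where it did for 18.8% of all genes, and it held 1 for 9. The median log2 ratio was 1.701, beside a median over all measured genes of 0.00, but 8 of the 36 genes passed the filter only through day 8.

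With the filter on the day-4 libraries alone, 21 of 28 genes were higher by 1.5-fold or more (16.2% of all genes were) and 0 were lower (14.1% were). The interval then lay above 1 for 18 genes (17.5% of all genes) and below 1 for 1 (19.4%), and the median log2 ratio was 1.09, beside −0.02 for all genes. Sums of counts over all members of a role need no filter. The day-8 control was 3.87-fold above Flag for the matriptase system (3.34 to 4.49), 3.29-fold for the tight junction membrane (2.74 to 3.97) and 2.90-fold for adhesion (2.25 to 3.78). It was 1.97-fold above Flag for desmosomes (1.85 to 2.10) and 1.61-fold for the tight junction plaque (1.35 to 1.92). Trafficking rested on 3 Flag counts, with a ratio of 9.86 (3.12 to 50.1), and gap junctions, at 1.44 (0.676 to 3.21), had an interval that held 1.

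**Figure D2:**
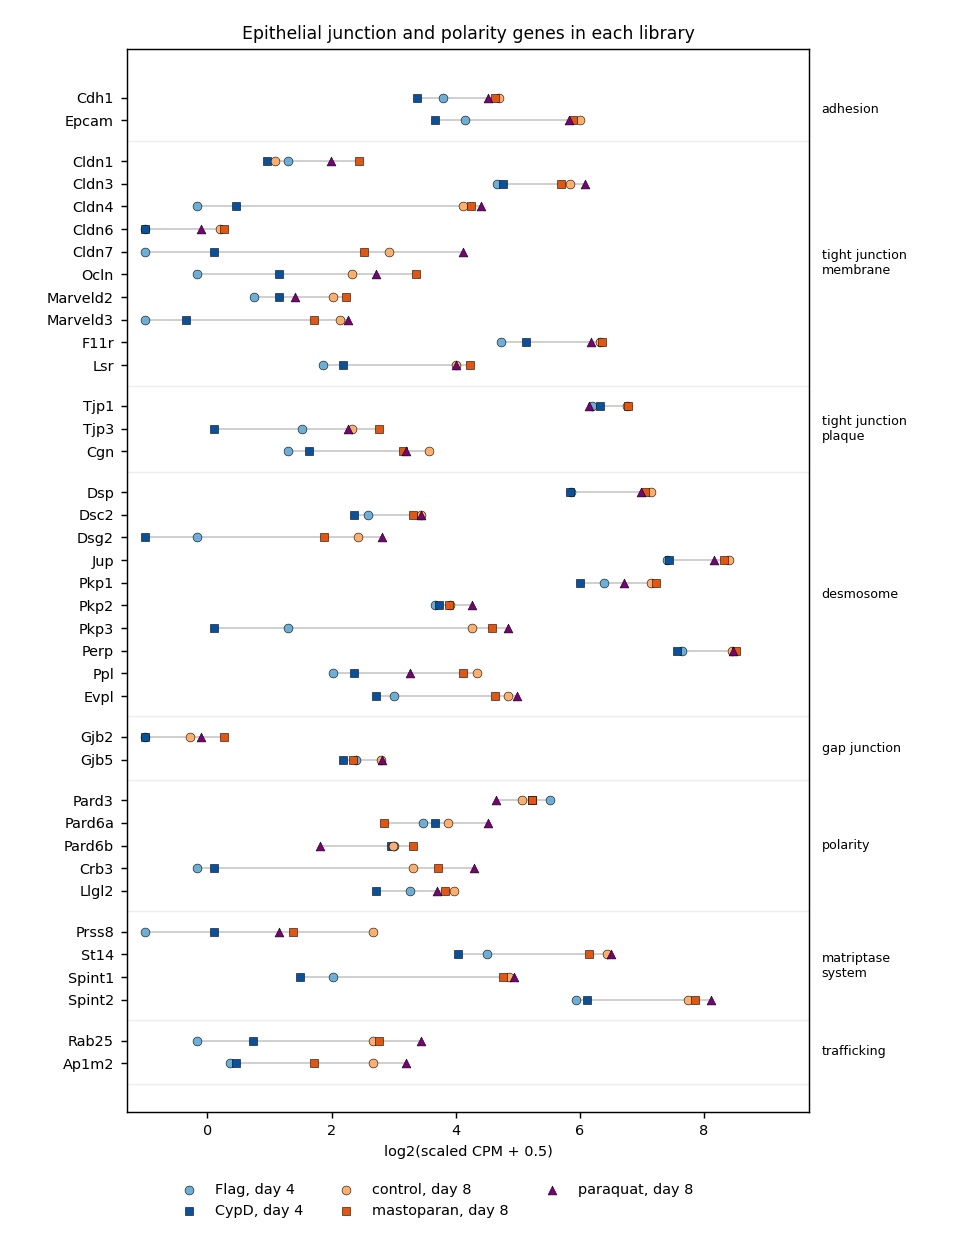
Scaled CPM of each epithelial junction and polarity gene in the 5 libraries, on a log axis, grouped by role. Day-8 points lie above day-4 points for 32 of the 38 genes, and the 6 overlapping genes are Cldn1, Tjp1, Gjb5, Pard3, Pard6a and Pard6b. Among the 32, Cldn6 and Gjb2 have at most 2 counts in any library.

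Levels were compared between genes in deposited TPM, which accounts for length. Perp, Jup and Spint2 were the 3 highest genes of the set in every library. Together they made up 59.5%, 60.6%, 55.4%, 56.6% and 54.5% of the set's TPM. The whole set summed to 529.9 and 510.6 TPM at day 4 and to 1217, 1187 and 1091 TPM at day 8. The median gene stood at 2.39 and 2.85 TPM at day 4 and at 10.3, 8.09 and 8.71 TPM at day 8. Genes under 1 TPM numbered 12 and 11 at day 4 and 3, 3 and 2 at day 8. The 3 most abundant genes were thus already expressed at day 4. TPM depends on the deposited transcript length, which differed between libraries for some genes. It ran from 373 to 824 bases for Cldn7, from 390 to 4052 for Ocln and from 953 to 5766 for Dsg2, all genes with few counts in the Flag library.

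The adhesion genes were Cdh1, which encodes E-cadherin, the calcium-dependent adhesion molecule of adherens junctions, and Epcam, a homophilic adhesion molecule of epithelial cells. Epcam stood at 17.4 and 12.2 CPM at day 4 and at 63.6, 59.0 and 56.3 CPM at day 8. The days did not overlap, and the day-8 control was 3.66-fold above Flag (2.63 to 5.20). Cdh1 stood at 13.4 and 9.85 CPM at day 4 and at 25.6, 24.2 and 22.5 CPM at day 8, which again did not overlap, and its fold was 1.91 (1.26 to 2.94). Cdh2, N-cadherin of mesenchymal and neural cells, was not part of the set and showed the opposite order, with 40.6 and 36.8 CPM at day 4 and 14.6, 16.1 and 16.0 CPM at day 8. The ratio of Cdh1 to Cdh2 CPM was 0.330 and 0.268 at day 4 and 1.76, 1.5 and 1.41 at day 8, values not corrected for transcript length.

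Claudins are the membrane proteins that form the tight junction strands. Cldn3 was the most abundant of the set's 5 claudins at day 4, with 24.9 and 26.6 CPM, and stood at 57.1, 51.6 and 67.6 CPM at day 8, a fold of 2.30 (1.71 to 3.11) for control against Flag. Cldn4 had 1 and 3 counts at day 4 (0.395 and 0.869 CPM) and 52, 53 and 48 counts at day 8 (16.9, 18.6 and 20.8 CPM). Its fold was 42.7, with an interval of 7.34 to 1720 because it rests on 1 Flag count. Cldn7 had 0 and 2 counts at day 4 (0 and 0.579 CPM) and 22, 15 and 39 at day 8 (7.13, 5.26 and 16.9 CPM), so the control stood at least 6.03-fold above Flag when the floor of 3 counts per library is used. In TPM, Cldn3 made up 96.1% and 88.97% of those 5 claudins at day 4 and 67.7%, 67.9% and 60.7% at day 8. Among these 5, Cldn4 and Cldn7 thus made up more of the TPM at day 8 than at day 4. Claudins outside the set were present on both days: Cldn11 stood at 17.5, 15.4, 38.2, 28.9 and 30.3 TPM and Cldn12 at 8.44, 10.04, 10.8, 8.75 and 9.24 TPM. Cldn12 was named after its values were seen.

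Cldn3 and Cldn4 are neighbours on chromosome 5 (mm10), at chr5:134986214-134987472 and chr5:134945119-134946934, with 39.3 kb between them. In the Flag library the pair stood at 30.7 and 0.33 TPM, and in the day-8 control at 67.85 and 13.8 TPM. Cldn1 did not follow this order, with 5, 5, 5, 14 and 8 counts. Cldn6 stayed at or below 2 counts in every library, under the floor at this depth.

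F11r encodes JAM-A, an immunoglobulin-like adhesion molecule of tight junctions. It was at 26.0 and 34.7 CPM at day 4 and at 79.8, 81.8 and 71.9 CPM at day 8, a fold of 3.06 (2.33 to 4.08). Lsr, which marks the corners where 3 cells meet (tricellular junctions) and recruits tricellulin there, stood at 3.16 and 4.05 CPM and then at 15.6, 18.2 and 15.6 CPM, with a fold of 4.93 (2.31 to 12.1). In both genes the days were well apart and the 3 day-8 libraries close together. The proteins with a MARVEL domain, a membrane-spanning fold, had few counts. Ocln (occludin) had 1, 6, 14, 28 and 14 counts, Marveld2 (tricellulin) 3, 6, 11, 12 and 5, and Marveld3 0, 1, 12, 8 and 10. Of these, Marveld2 had an interval that held 1 (0.796 to 16.8 around a fold of 3.01), and Marveld3 was at least 3.29-fold above the floor. Ocln (chr13:100496507-100552718) and Marveld2 (chr13:100595957-100616971) are 43.2 kb apart on chromosome 13.

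The tight junction plaque links the strands to actin. Tjp1, which encodes the scaffold ZO-1, was well expressed at both days, with 72.6 and 79.9 CPM at day 4 and 107.7, 109.1 and 70.2 CPM at day 8. The paraquat library lay below both day-4 libraries, so the days overlapped, and the control was 1.48-fold above Flag (1.23 to 1.79). Cgn, cingulin, an epithelial plaque protein, was at 1.97 and 2.61 CPM and then at 11.4, 8.42 and 8.66 CPM, a fold of 5.75 (2.24 to 18.8). Tjp3, which encodes ZO-3, had 6, 2, 14, 18 and 10 counts, and its fold of 1.92 had an interval that held 1 (0.692 to 6.09). Tjp1, a scaffold that fibroblasts also use, thus differed less between the day-8 control and Flag than Cgn did in these libraries.

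Desmosomes join the intermediate filaments of neighbouring cells. All 10 of their genes were higher in every day-8 library, where 28.5% of all measured genes were, but Dsg2 passed the filter only through day 8. Dsp, desmoplakin, which anchors keratin filaments, stood at 57.6 and 57.0 CPM at day 4 and at 142, 132 and 127 CPM at day 8, a fold of 2.47 (2.04 to 2.99). Jup, plakoglobin, shared by desmosomes and adherens junctions, was at 169.7 and 172.9 CPM and then at 340, 319 and 286 CPM, a fold of 2.001 (1.79 to 2.24). Perp, a membrane protein of desmosomes and a p53 target, was at 199.7 and 190.0 CPM and then at 349.6, 366 and 355 CPM, a fold of 1.75 (1.57 to 1.95). Each of the 3 had at least 146 counts in every library, and their folds lay between 1.75 and 2.47.

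The plakophilins, armadillo proteins of the desmosomal plaque, differed from each other. Pkp3 stood at 1.97 and 0.579 CPM at day 4 and at 18.8, 23.5 and 28.2 CPM at day 8, a fold of 9.53 (3.86 to 30.5). Pkp1 was at 83.7 and 63.4 CPM and then at 141, 149.5 and 104 CPM, a fold of 1.69 (1.43 to 1.997). Pkp2, which is also expressed outside epithelia, was at 12.2 and 12.7 CPM and then at 14.6, 14.4 and 18.6 CPM. The fold of Pkp2 was 1.19 with an interval of 0.738 to 1.95, so its difference was not detectable at this depth although no day-8 value lay below a day-4 value. The intervals of Pkp3 and Pkp1 did not overlap each other.

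The plakin proteins of the cornified envelope were also higher. Evpl, envoplakin, stood at 7.498 and 6.08 CPM at day 4 and at 28.2, 24.2 and 31.2 CPM at day 8, a fold of 3.76 (2.27 to 6.55). Ppl, periplakin, was at 3.55 and 4.63 CPM and then at 19.8, 16.8 and 9.10 CPM, a fold of 5.57 (2.75 to 12.8), and paraquat was the lowest of its day-8 libraries. Among the desmosomal cadherins, Dsc2 was at 5.52 and 4.63 CPM and then at 10.4, 9.47 and 10.4 CPM, and its fold of 1.88 had an interval of 0.974 to 3.81. Dsg2 had 1, 0, 15, 9 and 15 counts. The adhesive cadherins were thus low beside the plaque: the TPM of Jup was 27.7, 54.5, 35.0, 37.0 and 20.7 times that of Dsc2 and Dsg2 together. The lengths deposited for Dsg2 varied as given above, which enters those ratios.

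Connexins form gap junction channels, and Gjb5 was the connexin of the set that was measured. It stood at 4.74 and 4.05 CPM at day 4 and at 6.49, 4.56 and 6.499 CPM at day 8. The days overlapped through the mastoparan library, and the fold of 1.37 had an interval of 0.638 to 3.07. Gja1, a connexin of fibroblasts and many other cells that is outside the set, was at 121.9 and 123.7 CPM and then at 75.6, 81.1 and 72.8 CPM. Gja1 was chosen after its values were seen.

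The polarity genes were the least uniform role. Crb3, an apical Crumbs protein of epithelia, had 1 and 2 counts at day 4 (0.395 and 0.579 CPM) and 29, 36 and 44 at day 8 (9.41, 12.6 and 19.1 CPM), a ratio of 23.8 with an interval of 3.95 to 973. Llgl2, a basolateral Lethal giant larvae protein, was at 9.08 and 6.08 CPM and then at 15.2, 13.7 and 12.6 CPM. Its fold of 1.68 had an interval that held 1, with a lower end that rounds to 1.00. These 2 were the polarity genes with every day-8 CPM value above day 4. In deposited TPM the days overlapped for Llgl2, at 15.9, 4.37, 19.0, 17.3 and 10.9 TPM. Its deposited length ran from 901 to 2056 bases.

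The PAR genes, whose products form a complex with atypical protein kinase C, did not share that order. Pard3 stood at 45.4 and 37.1 CPM at day 4 and at 33.1, 37.2 and 24.7 CPM at day 8, and the control was 1.37 times lower than Flag (1.04 to 1.81). Pard6a was at 10.7 and 12.2 CPM and then at 14.3, 6.67 and 22.5 CPM, which put mastoparan below and paraquat above both day-4 libraries. Pard6b was at 7.498 and 7.24 CPM and then at 7.46, 9.47 and 3.03 CPM. Control and Flag differed in Pard6a and Pard6b by less than the counting intervals (0.811 to 2.25 and 0.518 to 1.93). The 5 polarity genes together were 1.09-fold higher in the day-8 control, with an interval that held 1 (0.896 to 1.32).

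The matriptase system showed the largest fold of summed counts among the roles with more than 100 Flag counts, at 3.87 (3.34 to 4.49). St14 encodes matriptase itself, a membrane serine protease, and Spint1 and Spint2 encode its Kunitz-type inhibitors HAI-1 and HAI-2. St14 stood at 22.1 and 15.9 CPM at day 4 and at 86.3, 70.2 and 90.1 CPM at day 8, a fold of 3.90 (2.92 to 5.31). Spint2 was at 61.2 and 68.6 CPM and then at 215, 231.6 and 276 CPM, a fold of 3.52 (2.95 to 4.21). The protease and this inhibitor differed between the days by folds whose intervals overlap. Spint1 was at 3.55 and 2.32 CPM and then at 28.5, 26.7 and 30.3 CPM, a fold of 8.04 (4.05 to 18.2). In TPM, Spint2 was 7.11, 11.1, 6.34, 8.45 and 7.82 times as abundant as St14. Prss8, which encodes prostasin, a protease that acts with matriptase, had 0, 2, 18, 6 and 4 counts, and its day-8 control value was at least 4.93-fold above the floor.

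The 2 trafficking genes were low at day 4. Rab25, a small GTPase of apical recycling endosomes, had 1 and 4 counts at day 4 (0.395 and 1.16 CPM) and 18, 18 and 24 at day 8 (5.84, 6.32 and 10.4 CPM). Its ratio was 14.8, with an interval of 2.34 to 616. Ap1m2, the epithelial subunit of the AP-1 clathrin adaptor that sorts basolateral cargo, had 2, 3, 18, 8 and 20 counts, a ratio of 7.40 (1.77 to 65.7). Neither gene overlapped between the days, but both passed the 1 CPM filter only through their day-8 counts.

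**Figure D3:**
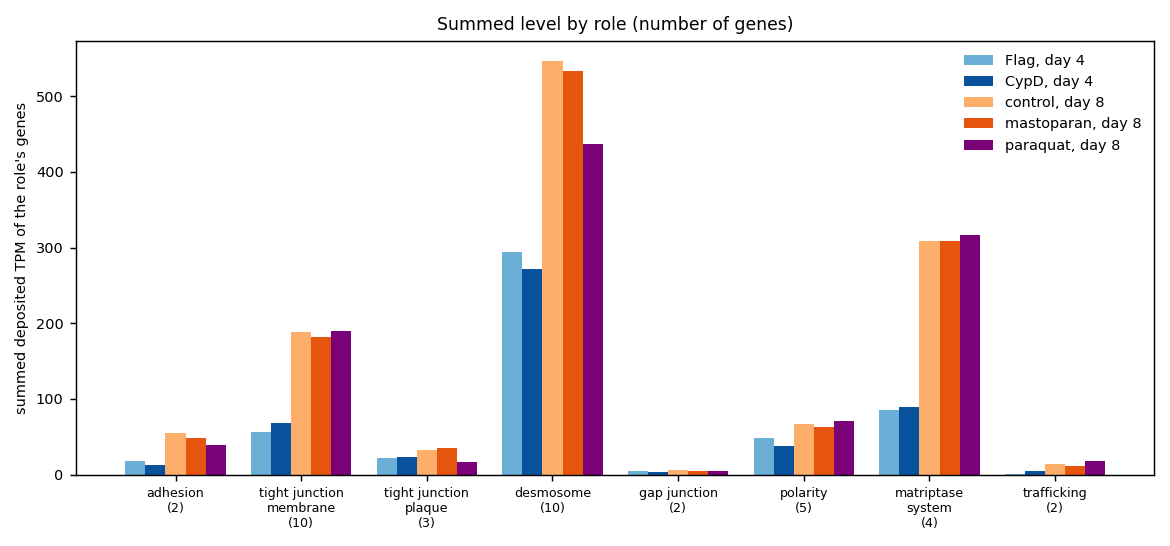
Summed deposited TPM of the genes of each role in the 5 libraries. The matriptase system goes from 85.7 TPM in the Flag library to 309 TPM in the day-8 control. The polarity genes go from 48.3 to 66.6 TPM between the same libraries, and from 73.0 to 79.5 in scaled CPM.

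Within a day the genes of the set stood closer together. Among the 27 genes that averaged 5 CPM or more, the highest day-8 library was a median 1.28-fold above the lowest, and 21 of 27 stayed within 1.5-fold (77.8%), against 82.5% of all 11069 genes at that level. The 6 past 1.5-fold were Cldn7, Crb3, Pard6a, Pard6b, Ppl and Tjp1, with the widest range in Pard6a (3.21-fold). All ranges in this paragraph were taken after adding 0.5 CPM to each value. The 2 day-4 libraries differed by a median of 1.22-fold, beside 1.10-fold over all 11069 genes, and 24 of 27 genes (88.9%) were within 1.5-fold, against 94.97%. The 3 exceptions at day 4 were Cldn4, Cldn7 and Pkp3, all at 5 counts or fewer in both libraries.

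CypD was compared with Flag at day 4 to ask whether the set differs where cyclophilin D is raised. Of 36 measured genes, 6 were at least 1.5-fold higher with CypD (6.12% of all measured genes were) and 3 were at least 1.5-fold lower (6.21% were). All 9 had at most 6 counts in either library, and none had a counting interval that left out 1. Only Pkp1 had an interval below 1, with 83.7 CPM in Flag and 63.4 CPM in CypD, 1.32 times lower (1.09 to 1.60), where 4.11% of all genes had such an interval and 3.98% had one above 1. The median log2 ratio of the set was 0.04, beside −0.01 for all measured genes. Summed over roles, the 2 adhesion genes were 1.40 times lower with CypD (1.01 to 1.94) and the 10 tight junction membrane genes 1.24-fold higher (1.01 to 1.53), both with one end of the interval close to 1. All 38 genes together were 1.03 times lower, with an interval that held 1 (0.977 to 1.09).

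At day 8 both treatments were set against the same control library, so its counting error enters both comparisons. With mastoparan, 2 of 36 genes were at least 1.5-fold higher (5.05% of all genes were) and 3 were at least 1.5-fold lower (5.76% were). Cldn1 went from 1.62 CPM in control to 4.91 CPM, 3.03-fold (1.03 to 10.7), and Ocln from 4.54 to 9.83 CPM, 2.16-fold (1.10 to 4.45). Their intervals were the 2 above 1, as for 4.03% of all genes. The 3 intervals below 1, as for 3.30% of all genes, were those of Pard6a, Prss8 and St14. Pard6a was 2.14 times lower (1.22 to 3.88) and Prss8 2.77 times lower (1.05 to 8.53), and St14, with 86.3 and 70.2 CPM, was 1.23 times lower (1.02 to 1.48). The median log2 ratio was −0.09, beside 0.01 for all genes, and the 38 genes together were 1.01 times lower (0.973 to 1.05). St14 was within 1.5-fold, and Ap1m2, the remaining gene past 1.5-fold, had 8 and 18 counts and an interval that held 1.

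With paraquat the genes of the set differed from control in both directions, while their sum differed by less than its counting interval. Of 36 genes, 5 were at least 1.5-fold higher (7.84% of all genes were) and 5 were at least 1.5-fold lower (10.8% were). Intervals lay above 1 for Cldn7, Crb3, Pard6a, Pkp3 and Spint2 and below 1 for Jup, Pard6b, Pkp1, Ppl, Prss8 and Tjp1, as they did for 11.2% and 9.83% of all genes. The median log2 ratio was 0.01, beside −0.03 for all genes, and all 38 genes together were 1.03 times lower (0.989 to 1.07).

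Among the higher genes, Cldn7 was at 7.13 CPM in control and 16.9 CPM with paraquat, 2.37-fold (1.37 to 4.19). Crb3 was at 9.41 and 19.1 CPM, 2.03-fold (1.24 to 3.36), and Pard6a at 14.3 and 22.5 CPM, 1.58-fold (1.04 to 2.41). All 3 genes averaged 5 CPM or more and had their highest value in the paraquat library. Pkp3 was 1.497-fold higher (1.03 to 2.17) and Spint2, with 637 counts, 1.28-fold higher (1.15 to 1.43). Cldn1 and Rab25, the remaining genes at least 1.5-fold higher, had intervals that held 1.

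Among the lower genes, Tjp1 was at 107.7 CPM in control and 70.2 CPM with paraquat, 1.53 times lower (1.27 to 1.86). Ppl was at 19.8 and 9.10 CPM, 2.17 times lower (1.31 to 3.76), and Pard6b at 7.46 and 3.03 CPM, 2.46 times lower (1.02 to 6.79). These are all transcripts of at least 3399 bases as deposited. Pkp1 was 1.36 times lower (1.16 to 1.60) and Jup 1.19 times lower (1.08 to 1.31). Prss8, with 4 counts, was 3.37 times lower (1.11 to 13.7), and Marveld2, with 5, had an interval that held 1. By role, the tight junction plaque was 1.49 times lower (1.25 to 1.78), desmosomes were 1.10 times lower (1.04 to 1.16) and the matriptase system was 1.19-fold higher (1.08 to 1.30).

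**Figure D4:**
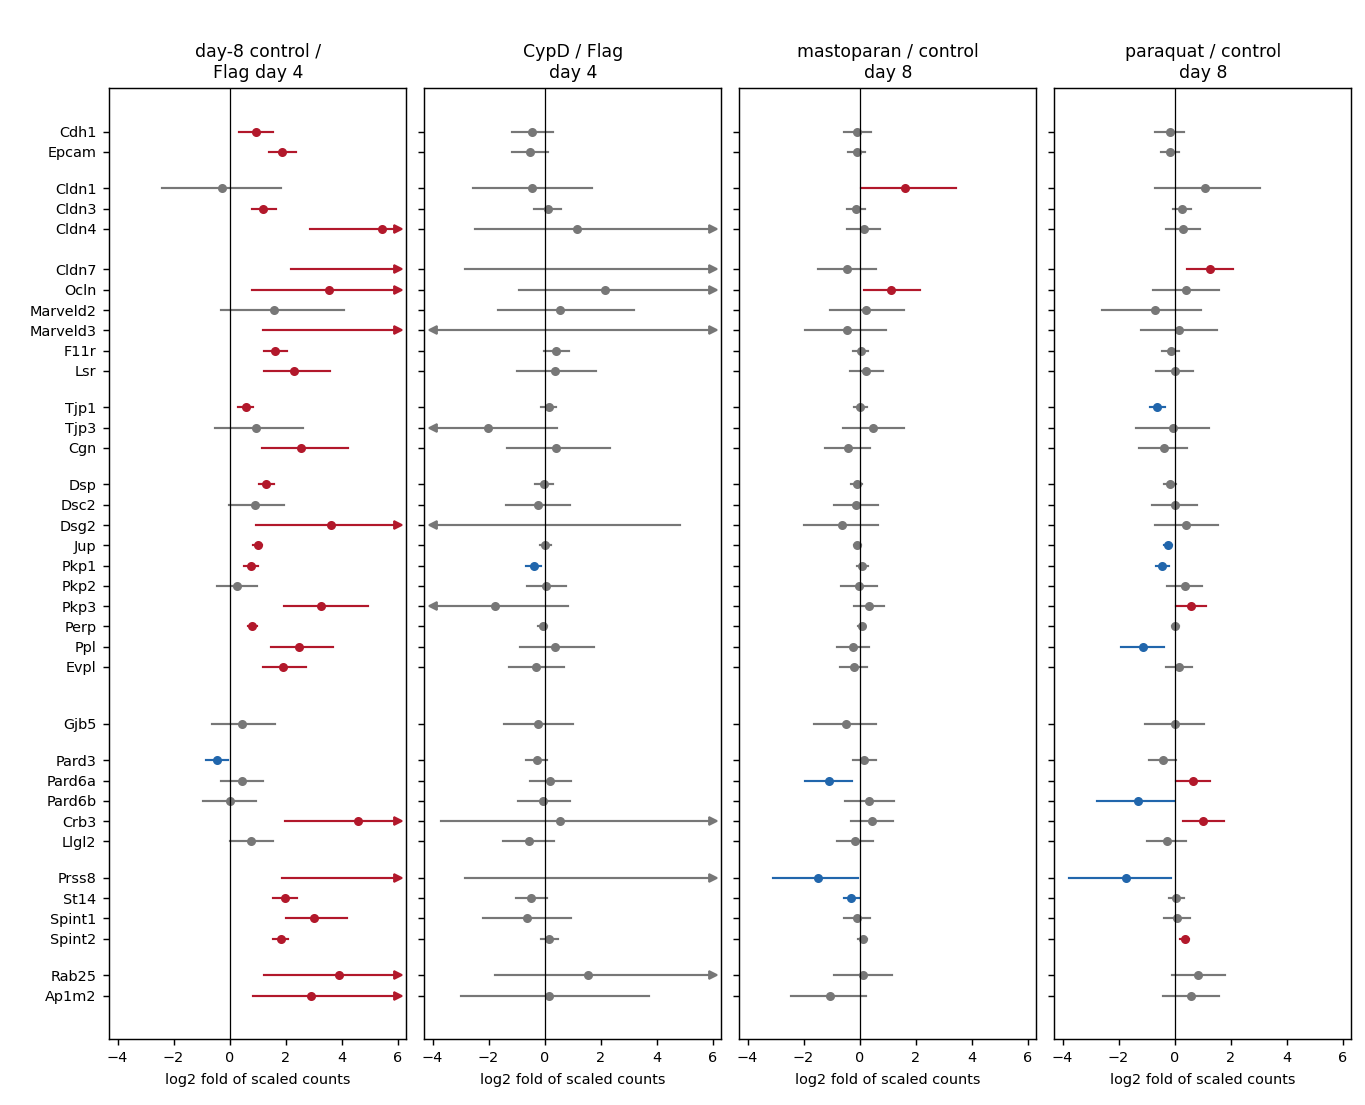
Log2 ratio of each measured epithelial junction and polarity gene in the 4 comparisons, grouped by role. The day-8 control against Flag is shifted upward, with a median of 1.701 (1.09 over the 28 genes that pass the filter on day-4 libraries), while the medians of the other comparisons lie between −0.09 and 0.04.

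The paraquat difference went with transcript length. Across the 36 genes the Spearman correlation of the log2 ratio with length was −0.56 and the Pearson correlation with log10 length −0.54, values over genes of the same 2 libraries, and over all measured genes the Spearman value was −0.38. The 17 genes under 2000 bases had a median log2 ratio of 0.24, with 14 above 0, and the 19 longer genes −0.17, with 7 above 0. All short and all long measured genes had medians of 0.15 and −0.13. With the trend of all genes along length removed, 2 genes of the set stayed at least 1.5-fold higher and 3 at least 1.5-fold lower. The log2 ratio of Cldn7 was then 0.74 in place of 1.19, that of Crb3 0.53 in place of 0.98, that of Tjp1 −0.45 in place of −0.61 and that of Ppl −0.88 in place of −1.08. What part length had in the differences of single genes was not tested. On deposited TPM, 3 genes of the set passed 1.5-fold upward and 8 downward, with a median of −0.24 beside −0.28 for all genes. The day comparison also went with length in the set, with a Spearman correlation of −0.35, beside −0.14 over all measured genes. Its median log2 ratio was 2.30 in the 17 shorter genes and 1.00 in the 19 longer ones. All short and all long measured genes had medians of 0.09 and −0.05 there. For this comparison, the median of the 36 genes was 1.67 with the trend removed.

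**Figure D5:**
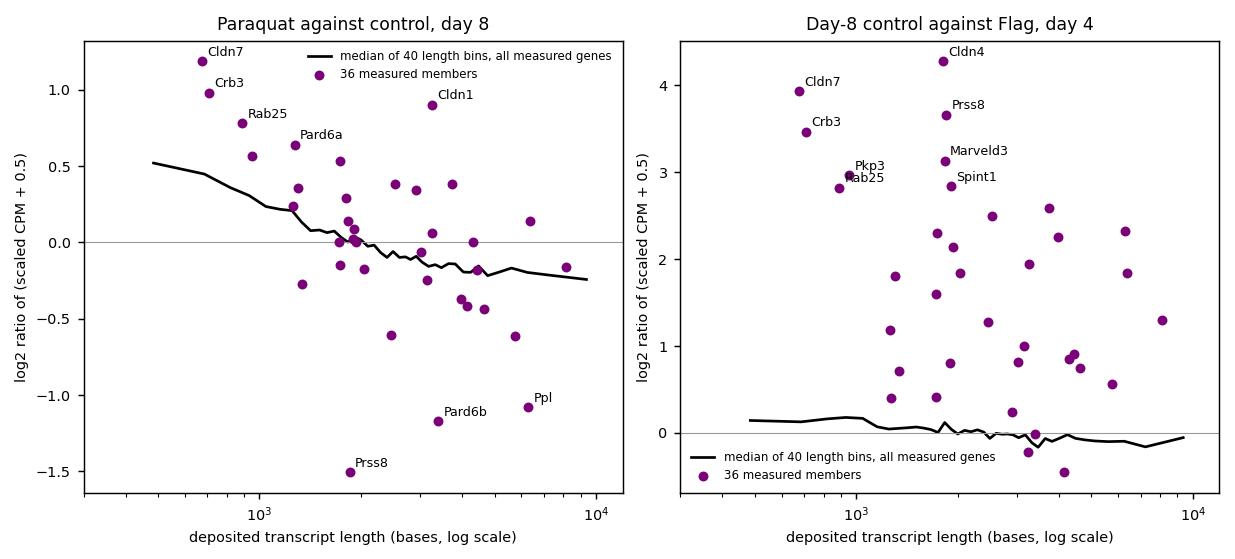
Log2 ratio with paraquat against the deposited transcript length for the measured epithelial junction and polarity genes and for all measured genes by length bin. Short genes lie mostly above 0 and long genes mostly below, as the bin medians of all genes do.

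The wider pathway was taken from lists of related genes outside the set, with the filter over all 5 libraries. That filter admits genes through day 8 alone, Esrp1 below among them, and no day-4 filter was applied to these lists. Of 29 other junction genes that were measured, 11 were higher by 1.5-fold or more in the day-8 control than in Flag and 5 lower, with a median log2 ratio of 0.41. For this list and those below, the matching shares over all measured genes are 19.0% upward and 12.8% downward. Whether any list departs from these shares was not tested. Cldn5, a claudin of endothelium, stood at 0.395 and 1.45 CPM at day 4 and at 10.1, 6.32 and 8.23 CPM at day 8. The endothelial markers are given above, and which cells expressed Cldn5 was not tested. Nectin2, an adhesion molecule of adherens junctions, was at 21.7 and 32.7 CPM and then at 49.9, 51.2 and 58.5 CPM. Cdh11, a mesenchymal cadherin, was at 56.0 and 49.5 CPM and then at 20.4, 20.001 and 16.5 CPM. The mesenchymal cadherins thus stood in the opposite order to Cdh1.

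Of 21 other polarity genes, 2 were higher by 1.5-fold or more and 5 lower, with a median log2 ratio of −0.20. Prkcz, an atypical protein kinase C, was the highest of these by ratio. It stood at 9.87 and 3.19 CPM at day 4 and at 28.5, 28.1 and 26.9 CPM at day 8, and the CypD library lay below Flag. Mpdz, a scaffold with many PDZ domains, was at 16.6 and 17.95 CPM and then at 5.51, 5.26 and 6.07 CPM. Of 9 other epithelial proteases, inhibitors and trafficking genes, 5 were higher and 0 lower, with a median of 0.59. Mal, a protein of apical transport, was at 71.8 and 68.9 CPM and then at 295, 337 and 303 CPM, and Rab17, an epithelial GTPase, at 5.13 and 2.61 CPM and then at 23.0, 20.7 and 31.6 CPM.

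Transcription and splicing regulators of epithelial genes gave 6 of 8 at least 1.5-fold higher and 0 lower, with a median log2 ratio of 1.30. Esrp1, an epithelial splicing regulator, had 1 and 2 counts at day 4 (0.395 and 0.579 CPM) and 45, 34 and 31 at day 8 (14.6, 11.9 and 13.4 CPM). Elf3 and Ehf, epithelial ETS factors, went from 12.6 to 35.0 CPM and from 17.8 to 48.3 CPM between Flag and the day-8 control. Of the 6 mesenchymal transcription factors, some of which bind the E-box letters shown above, 1 was at least 1.5-fold higher and 2 lower, with a median of −0.43. Zeb2 stood at 21.7 and 15.9 CPM at day 4 and at 9.41, 11.9 and 9.96 CPM at day 8. Twist2 was at 22.1 and 17.95 CPM and then at 6.16, 12.3 and 9.10 CPM. Snai1 had the other direction, with 11.8 and 11.004 CPM and then 21.1, 12.3 and 16.9 CPM. The 6 factors therefore did not share one direction.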

How the data were processed

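RNA was extracted with Trizol and made into TruSeq RNA libraries from total RNA, per the labels' protocols. Bowtie2 2.2.5 and mm10 were used, per the submitters' processing notes, and which program counted the reads, with which annotation, is not given in the sources used here. Each gene has an expected count, a TPM, an FPKM, a length and an effective length in the deposited tables, per the file headers. The authors' deposited TPM was used for levels between genes, and the deposited FPKM for library sums alone. Expected counts were rounded and scaled by TMM factors (edgeR 4.0.16 in R 4.3.3) of 1.01 (Flag), 1.01 (CypD), 1.02 (control), 1.01 (mastoparan) and 0.951 (paraquat).

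Symbols came from GENCODE M21 of GRCm38 (the assembly of mm10) for 28756 of 29267 IDs. The members and gene lists were chosen with earlier results of these data known. Log2 ratios carry a pseudocount of 0.5 CPM over 13584 genes that average 1 CPM or more. Folds have none, apart from the ranges between libraries within a day, and a library at 0 is set to 3 counts. Intervals do not allow for choosing genes, and reads of amplified libraries are not independent molecules. The trend along length was removed as medians of 40 bins. In the reference sequences of 82533 of 84205 transcripts, no member shared 20% or more of its 49-base windows with another gene. Values in every library are given for members with a mean of at least 5 CPM, and for each further list up to 4 genes with the largest log2 ratio at that level may be named. Strand was not stated, so reads of overlapping antisense genes cannot be told apart. DESeq2 1.42.0 gave alternative size factors. Python 3.11.15 was used with pandas 2.3.3, scipy 1.17.1, numpy 2.4.6 and matplotlib 3.10.9, and the code was tested on simulated data. One gene of a further list is not reported here.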

Additional observations from a re-analysis of the deposited data

How the results depend on the processing

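The count of genes at least 1.5-fold higher in the day-8 control than in Flag stayed within 1.5 times of its value under every alternative tried, the CypD library in place of Flag included. Its median of 1.701 did not change direction but was 1.09 with the day-4 filter, 1.29 at 5 CPM and 1.32 on TPM. The count of genes higher in every day-8 library was between 30 and 32 when each library was left out in turn. Each removal drops a condition, so this count could stay or rise and says little about stability. The share of all measured genes rose as well, from 28.5% to between 32.0% and 35.8%. The count lower in every day-8 library was between 0 and 1 in the same runs, and 1 with DESeq2 size factors and 1 on deposited TPM. In these cases the gene was Pard3, whose mastoparan and CypD values nearly coincide. The small counts within a day moved with the settings. For CypD against Flag, 6 higher became 3 on TPM, 2 with a mean of at least 5 CPM, 1 with a pseudocount of 2 CPM, 3 at 2-fold and 1 with the filter on the day-4 libraries, and 3 lower became 1 at 5 CPM. For mastoparan, 2 higher became 0 at 5 CPM, and 3 lower became 1 at 5 CPM and 1 with the day-4 filter. For paraquat, 5 higher became 3 on TPM, 3 at 5 CPM, 2 with the length trend removed, 1 at 2-fold and 2 with the day-4 filter. Its 5 lower became 3 with upper-quartile factors, 8 on TPM, 3 at 5 CPM, 3 with the length trend removed and 3 at 2-fold, and its median became −0.24 on TPM. Fewer genes are tested under the stricter filters, and otherwise the cause was not tested. The other 145 recomputed values either kept within 1.5 times of a count or within the order-statistic interval of a median, and include the lower medians of the day comparison given above. The day-4 filter and the CypD baseline were chosen after seeing the data. Depth limits the genes with few counts at day 4, where a single read sets the fold. No paired analysis was possible because each group has 1 library.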
